A study of Homo sapiens with 6 samples.

Results

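The genes described here are the 5 subunits of the transcription factor NF-kB (NFKB1, NFKB2, REL, RELA and RELB) and 5 of the proteins that hold it in check (NFKBIA, NFKBIB, NFKBIE, NFKBIZ and TNFAIP3). They were taken by symbol from a table of 27958 genes, and all 10 were present once and passed the filter on low values (TPM of at least 1 in 3 or more of the 6 libraries). The libraries come from human cells labelled PC3, a prostate cancer line grown from a bone metastasis. The parent population was stained with an antibody against NRP2, a surface receptor that binds semaphorins and VEGF, and divided by flow sorting into NRP2-high and NRP2-low cells, with 3 libraries each (NRP2-high S38, S39, S40; NRP2-low S35, S36, S37). Values of single libraries are given in that order. Both groups are of the same line and carry no other treatment or genetic change in the labels. The sorted cells were cultured for as long as 2 weeks and harvested at several passages, so the libraries show cultured descendants of the sorted cells. All levels are TPM, the share of a library's transcripts corrected for gene length and put on a common total.

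NF-kB acts as a dimer of 2 subunits. RELA, RELB and REL carry a transactivation domain, whereas NFKB1 and NFKB2 encode precursors (p105 and p100) that are processed to the DNA-binding proteins p50 and p52. In resting cells the IkB proteins, encoded by NFKBIA, NFKBIB and NFKBIE, keep the dimers in the cytoplasm until the IkB kinase complex marks them for degradation. Several genes of the pathway are themselves switched on by NF-kB. NFKBIA and TNFAIP3, which encodes the ubiquitin-editing enzyme A20, are textbook cases of such negative feedback, and NFKB1, NFKB2, RELB and NFKBIE are also known targets.

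The library facts that touch these genes are few. Whole reads recovered from TPM and gene length gave 17551302 to 30726744 reads per library. In library S37 (NRP2-low) mitochondrially encoded genes took 31.0% of TPM, against 11.1% to 18.7% in the other 5 libraries, which lowers every other TPM value there. NRP2 itself, with 48.1, 42.5 and 16.6 TPM in the NRP2-high and 7.55, 5.10 and 2.71 TPM in the NRP2-low libraries, differed in the direction of the sort (log2 fold change 2.53, limma adjusted p = 0.0375, up to 0.160 with a library left out). NRP2 did not pass adjusted p 0.05 without S38, S39, S36 or S37. Nor did it pass with a pseudocount of 0.1, no filter, no variance trend or TPM without mitochondrial genes (limma adjusted p 0.0502 to 0.176). The epithelial keratins KRT8 (62.9 to 174 TPM) and KRT18 (342 to 585 TPM) were present. Of the fixed PC3 markers, EPCAM (at most 0.0726 TPM) and KRT19 (at most 0.0783 TPM) were at or near 0 in all libraries. These values of EPCAM and KRT19 go against what is known of the line, so PC3 is used here only as the label gives it. None of 6 leukocyte, 6 fibroblast or 5 endothelial markers in the table reached 1 TPM in 3 libraries. The summed leukocyte markers, whose cells also make cytokines, were at 0.219 to 1.01 TPM in NRP2-high and 0.817 to 1.82 TPM in NRP2-low libraries. In the NRP2-low libraries CD14 gave most of the sum. CD14 was at 0, 0.0965 and 0.69 TPM in NRP2-high and 0.475, 0.727 and 1.52 TPM in NRP2-low libraries. PTPRC, the leukocyte common antigen gene, was at most 0.0397 TPM. The summed fibroblast markers did not overlap, at 0.642 to 2.98 TPM in NRP2-high and 0.014 to 0.337 TPM in NRP2-low libraries, mostly from LUM (0.541 to 2.30 TPM in NRP2-high), and the part of either in the results was not tested.

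Promoter sequences are shown first because most of these genes are known NF-kB targets. RefSeq promoters (GRCh38.p14, 250 bases before to 50 bases after a transcript start) were found for 8 of the 10 genes, in 14 entries. RELB and NFKBIE have no entry in the table used. Capitals mark the kappaB consensus motif, the DNA sequence that NF-kB dimers are known to bind, searched on both strands. The first pair are the inhibitors with the largest differences between groups, and the second pair are the subunits that make up the classical p50 and p65 dimer, 1 with a match and 1 without.
NFKBIA, chr14:35404700-35404999, minus strand: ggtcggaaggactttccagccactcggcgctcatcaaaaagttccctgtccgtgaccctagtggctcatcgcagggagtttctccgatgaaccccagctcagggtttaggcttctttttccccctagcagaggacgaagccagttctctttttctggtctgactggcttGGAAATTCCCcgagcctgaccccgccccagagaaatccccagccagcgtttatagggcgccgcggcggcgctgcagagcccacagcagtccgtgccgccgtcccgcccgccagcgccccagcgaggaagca
TNFAIP3, chr6:137867009-137867308, plus strand: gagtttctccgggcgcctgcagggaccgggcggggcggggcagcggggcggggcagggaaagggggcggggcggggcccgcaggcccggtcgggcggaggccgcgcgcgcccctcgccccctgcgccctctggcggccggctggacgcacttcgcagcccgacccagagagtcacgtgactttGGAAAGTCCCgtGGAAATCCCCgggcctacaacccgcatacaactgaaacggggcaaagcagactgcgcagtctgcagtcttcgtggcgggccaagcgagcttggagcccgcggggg
NFKB1, chr4:102501109-102501408, plus strand: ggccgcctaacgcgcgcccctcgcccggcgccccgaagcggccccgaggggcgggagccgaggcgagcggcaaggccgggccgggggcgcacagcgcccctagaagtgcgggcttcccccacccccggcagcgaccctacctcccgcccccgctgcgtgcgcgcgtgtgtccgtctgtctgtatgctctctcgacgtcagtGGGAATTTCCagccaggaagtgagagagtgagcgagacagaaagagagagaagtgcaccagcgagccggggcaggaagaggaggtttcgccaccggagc
RELA, chr11:65662867-65663166, minus strand: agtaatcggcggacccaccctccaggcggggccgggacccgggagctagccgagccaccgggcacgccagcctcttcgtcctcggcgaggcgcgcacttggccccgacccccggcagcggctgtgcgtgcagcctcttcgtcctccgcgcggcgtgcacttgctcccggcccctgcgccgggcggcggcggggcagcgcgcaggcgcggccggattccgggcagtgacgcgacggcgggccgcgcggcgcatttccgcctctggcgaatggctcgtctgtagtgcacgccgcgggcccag
The NFKBIA match began 81 bases before the start and lay on the opposite strand of the gene. TNFAIP3 held 2 matches, 67 and 55 bases before the start, and NFKB1 held 1 match 49 bases before it. Neither of the 2 RELA entries held a match, which says only that these letters are not in those windows.

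Matches in the other entries follow the same consensus, so part of their likeness in letters was fixed by the search. GGGAATTTCC, the NFKB1 match, stood also in an NFKBIB entry (28 bases before the start) and an NFKBIZ entry (223 bases before the start). REL held GGGAAATTCC 47 bases before its start, overlapping a match on the other strand with the same letters as that of NFKBIA. Read on the opposite strand, this match of REL and NFKBIA is GGGAATTTCC as well. A further NFKBIZ entry held GGGGTTTCCC 239 bases before its start. An NFKB2 entry held GGGAATTCCC 107 bases and GGGGCTTTCC 78 bases before its start. Another NFKB2 entry held GGGGCTTCCC 176 bases and GGGACTTTCC 21 bases before its start. In all, 7 of the 8 genes, and 9 of their 14 entries, held at least 1 match. Of all 35116 promoter entries 5.91% held one, and of 9274 tested genes with an entry 8.73% did. A looser form (GGG, any 5 bases, CC), which contains the consensus, was in an entry of each of the 8 genes and of 79.8% of the 9274 tested genes. A match describes letters, not binding, which was not measured in these cells.

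Levels are set side by side because TPM is corrected for gene length. That length equals all annotated exon bases of a gene, not the length of the transcripts in these cells. Comparisons between genes, also the shares and ratios below, are therefore approximate. In NRP2-low cells NFKBIA was the most abundant of the 10 transcripts at 80.5 ± 14.2 TPM (SD, n = 3), followed by NFKB1 (60.4 TPM), NFKB2 (53.1 TPM), RELA (47.5 TPM), NFKBIZ (46.3 TPM) and NFKBIB (36.7 TPM). TNFAIP3 (14.5 TPM), NFKBIE (13.5 TPM), RELB (12.4 TPM) and REL (4.30 TPM) followed. The ranges of neighbours in this order overlapped, except those of NFKBIB and TNFAIP3 and those of RELB and REL. In NRP2-high cells the order began with NFKB1 (48.5 TPM), RELA (47.4 TPM) and NFKB2 (42.4 TPM), and NFKBIA stood sixth of 10 at 25.8 ± 4.71 TPM (SD, n = 3). TNFAIP3 was the lowest there at 3.90 TPM, close to REL at 4.18 TPM. In NRP2-high cells the ranges of neighbours overlapped as well, except those of NFKBIA and NFKBIE and those of NFKBIE and RELB. The REL level may be counted over a part of the gene only: 43.3% of its exon bases are shared with an annotated noncoding RNA on the same strand, and how reads there were assigned is not given in the sources used here.

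**Figure D1:**
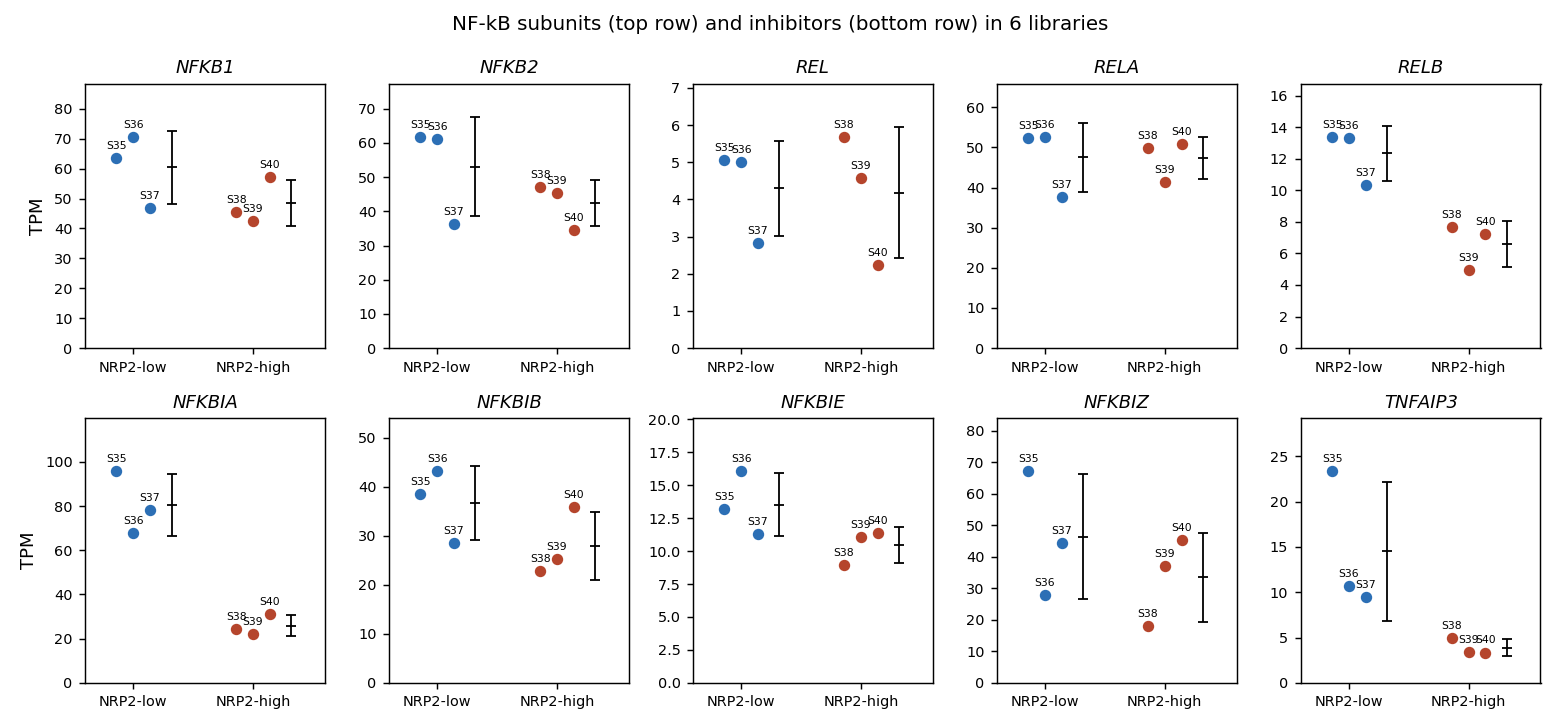
TPM (y axis, linear, from 0) of the 10 genes in each library (points, labelled), NRP2-low in blue and NRP2-high in red, with the group mean and SD (n = 3) in black. RELB, NFKBIA and TNFAIP3 have groups that do not overlap, and S37 is the lowest NRP2-low library for all 5 subunits.

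The comparison of NRP2-high with NRP2-low cells asks which transcripts differ between cells that were sorted by the level of this receptor. Of the 10 genes, 1 passed the threshold (adjusted p under 0.05 over 15214 tested genes, limma on log2(TPM + 1)): NFKBIA was lower in NRP2-high cells. All 5 inhibitors and 4 of the 5 subunits had a log2 fold change below 0, as did 33.7% of all tested genes, and 1 inhibitor and 0 subunits passed. At an unadjusted p under 0.05 the count was 2 inhibitors and 1 subunit, all lower in NRP2-high cells, against 7.00% of all tested genes in either direction and 2.27% lower. Over all tested genes 127 passed (0.835%), 74 of them lower (0.486%) and 53 higher (0.348%) in NRP2-high cells, and the total was 43 without S36, 54 without S39, 69 without S38 and 73 without S35. The groups did not overlap for RELB, NFKBIA and TNFAIP3, all lower in NRP2-high cells, against 3.14% of tested genes that were lower without overlap and 8.83% that were higher without overlap. The median log2 fold change was -0.29 over the 5 subunits, -0.47 over the 5 inhibitors and 0.10 over all tested genes. In bulk RNA a smaller share of cells that express a gene and less of its RNA per cell cannot be told apart.

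**Figure D2:**
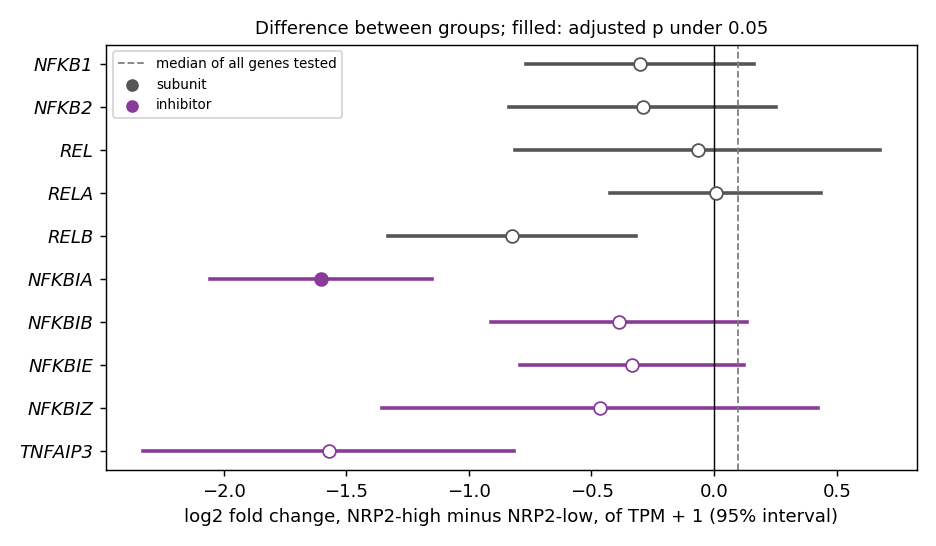
Log2 fold change of TPM + 1, NRP2-high minus NRP2-low (x axis), with its 95% limma interval for each gene, subunits in grey and inhibitors in purple; a filled point passed adjusted p 0.05 and the dashed line is the median of all tested genes (0.10). NFKBIA is the filled point, and the intervals of RELB and TNFAIP3 also lie below 0.

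RELA encodes p65, the main transactivating subunit. RELA (ENSG00000173039.18, GRCh38, chromosome 11, 65653596 to 65663094, minus strand) had 49.9, 41.4 and 50.8 TPM in the NRP2-high libraries. In the NRP2-low libraries RELA had 52.3, 52.7 and 37.6 TPM. The groups overlapped and S37 was the lowest of all. With a log2 fold change of 0.01 (SE 0.19, limma adjusted p = 0.997) and a 95% interval of -0.42 to 0.44, the interval covers ratios of NRP2-low to NRP2-high from 0.739 to 1.34. Its sign depended on scaling: RELA stood at -0.12 when libraries were scaled by their median log ratio and at -0.08 in TPM recomputed without mitochondrial genes.

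NFKB1, which encodes p105 and p50, had 45.6, 42.6 and 57.2 TPM in the NRP2-high and 63.5, 70.7 and 46.9 TPM in the NRP2-low libraries (ENSG00000109320.11, chromosome 4, 102501329 to 102617302, plus strand). S40 was the highest of its group and S37 the lowest of its own, and these 2 crossed. This gave a log2 fold change of -0.30 (SE 0.20, limma adjusted p = 0.874) with a 95% interval of -0.77 to 0.16. NFKB2, the p100 and p52 gene of the noncanonical branch, was at 47.1, 45.4 and 34.6 TPM against 61.9, 61.0 and 36.4 TPM (ENSG00000077150.18, chromosome 10, 102394110 to 102402529, plus strand). S40 and S37 were the low libraries of their groups, and S37 lay below 2 NRP2-high libraries. The log2 fold change of NFKB2 was -0.29 (SE 0.24, limma adjusted p = 0.895).

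REL, the c-Rel gene best known from lymphocytes, was the least abundant subunit (ENSG00000162924.14, chromosome 2, 60881521 to 60931610, plus strand). It had 5.69, 4.59 and 2.25 TPM in the NRP2-high and 5.06, 5.02 and 2.83 TPM in the NRP2-low libraries. S40 and S37 were the low libraries of their groups, and the ranges overlapped. The log2 fold change of REL was -0.07 (95% interval -0.81 to 0.68, limma adjusted p = 0.979), and 0.24 without S40.

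RELB, the partner of p52, differed most among the subunits (ENSG00000104856.13, chromosome 19, 45001430 to 45038194, plus strand). It had 7.65, 4.92 and 7.24 TPM in the NRP2-high and 13.4, 13.3 and 10.3 TPM in the NRP2-low libraries, resting on 82 to 135 and 175 to 318 reads. All NRP2-high libraries lay below all NRP2-low libraries. The group means were 6.60 ± 1.47 and 12.4 ± 1.75 TPM (SD, n = 3 each), with a log2 fold change of -0.82 (SE 0.22) and a 95% interval of -1.33 to -0.32. With an unadjusted p of 0.00523 and a limma adjusted p of 0.272, RELB did not pass over all genes, and it did not pass in any of the 14 alternatives (adjusted p 0.0695 to 0.927). In TPM recomputed without mitochondrial genes the NRP2-low libraries came closer together, at 15.6, 15.7 and 14.98 TPM, against 8.61, 5.86 and 8.90 TPM.

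The makeup of the subunit pool was also described within each library, where the total cancels. The summed TPM of the 5 subunits was 139 to 156 in NRP2-high and 134 to 203 in NRP2-low libraries, so the groups overlapped. RELA, NFKB1 and NFKB2 together supplied most of it in every library. RELB made up 3.54% to 4.91% of it in NRP2-high and 6.57% to 7.71% in NRP2-low libraries, whereas RELA made up 29.8% to 33.4% and 26% to 28%. These ranges did not overlap. Per RELA transcript there were 0.119 to 0.153 RELB transcripts in NRP2-high and 0.253 to 0.275 in NRP2-low libraries, and 0.912 to 1.13 and 1.22 to 1.34 NFKB1 transcripts. No test was made of these shares, since they were formed from genes whose values were known.

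NFKBIA encodes IkB-alpha, the inhibitor that is made again after each round of NF-kB activity (ENSG00000100906.10, chromosome 14, 35401511 to 35404650, minus strand). NFKBIA had 24.3, 22.1 and 31.1 TPM in the NRP2-high libraries. In the NRP2-low libraries it had 95.7, 67.7 and 78.1 TPM. The lowest NRP2-low library was above the highest NRP2-high library by more than the whole range of the NRP2-high group. NFKBIA fell in NRP2-high cells with a log2 fold change of -1.60 (SE 0.20, limma adjusted p = 0.00890) and a 95% interval of -2.05 to -1.15, a level 3.04-fold higher in NRP2-low cells on the scale of TPM + 1 (95% interval 2.22 to 4.15). Reads were 288 to 454 and 938 to 1776 per library. NFKBIA kept the call without any 1 of 5 libraries and lost it without S39, with an adjusted p of 0.0582 and a log2 fold change of -1.50. It kept the call in the 8 other alternatives (adjusted p 0.00591 to 0.0450).

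TNFAIP3 encodes A20, which removes activating ubiquitin chains from adaptors upstream of the IkB kinase (ENSG00000118503.14, chromosome 6, 137867188 to 137881198, plus strand). TNFAIP3 had 5.00, 3.35 and 3.35 TPM in the NRP2-high and 23.3, 10.7 and 9.48 TPM in the NRP2-low libraries. The groups did not overlap, and S35 was more than 2 times the other NRP2-low libraries. The log2 fold change of -1.57 was close to that of NFKBIA, but its SE was 0.33 (95% interval -2.33 to -0.81). With an unadjusted p of 0.00123 and a limma adjusted p of 0.106 it did not pass over all genes, nor without any 1 library (adjusted p 0.126 to 0.367) nor under the 7 other planned settings (0.0612 to 0.315). With voom on whole reads, an alternative chosen after seeing the data, it passed at an adjusted p of 0.0301 (log2 fold change -1.96).

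The other members of this group did not pass and their groups overlapped. NFKBIB, which encodes IkB-beta, was at 22.7, 25.2 and 35.8 TPM against 38.5, 43.1 and 28.5 TPM, with a log2 fold change of -0.39 (95% interval -0.91 to 0.13, limma adjusted p = 0.866). NFKBIE, which encodes IkB-epsilon, was at 8.93, 11.1 and 11.4 TPM against 13.2, 16.1 and 11.3 TPM, with a log2 fold change of -0.33 (95% interval -0.79 to 0.12, limma adjusted p = 0.870). S37 and S40 were the libraries that met in both genes, and in TPM recomputed without mitochondrial genes the NFKBIE groups no longer overlapped (10.05, 13.2 and 14.03 against 15.4, 18.9 and 16.4 TPM). NFKBIZ encodes IkB-zeta, a nuclear protein that acts with p50 as a co-regulator of secondary response genes and is an inhibitor by family more than by function. It was at 18.0, 37.0 and 45.5 TPM against 67.1, 27.7 and 44.2 TPM, so that neither group was set apart. Its log2 fold change was -0.47 (95% interval -1.36 to 0.42, limma adjusted p = 0.895), and -0.08 without S38 and -0.16 without S35. The positions are chromosome 19, 38899700 to 38908891 (NFKBIB, ENSG00000104825.16, plus strand), chromosome 6, 44258166 to 44265788 (NFKBIE, ENSG00000146232.16, minus strand) and chromosome 3, 101827991 to 101861022 (NFKBIZ, ENSG00000144802.11, plus strand). Of NFKBIB exon bases 1.72% lie opposite exons of SIRT2, and of TNFAIP3 exon bases 1.88% lie opposite those of AL357060.1, and without a stated strand setting reads there cannot be told apart.

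Among the 3 classical IkB genes NFKBIA led in every NRP2-low library, and in 2 of 3 NRP2-high libraries NFKBIB led. NFKBIA made up 64.9%, 53.4% and 66.3% of their summed TPM in S35, S36 and S37 and 43.4%, 37.8% and 39.7% in S38, S39 and S40. In S38, S39 and S40 NFKBIB made up 40.6%, 43.2% and 45.7%. The summed TPM of the 3 genes was 56.0 to 78.3 in NRP2-high and 118 to 147 in NRP2-low libraries, without overlap. Per subunit transcript there were 0.359 to 0.515 classical IkB transcripts in NRP2-high and 0.626 to 0.880 in NRP2-low libraries. Per RELA transcript there were 0.486 to 0.612 NFKBIA transcripts in NRP2-high and 1.28 to 2.08 in NRP2-low libraries. These ratios are within a library, so the mitochondrial share of S37 cancels in them, and no p is given for them.

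**Figure D3:**
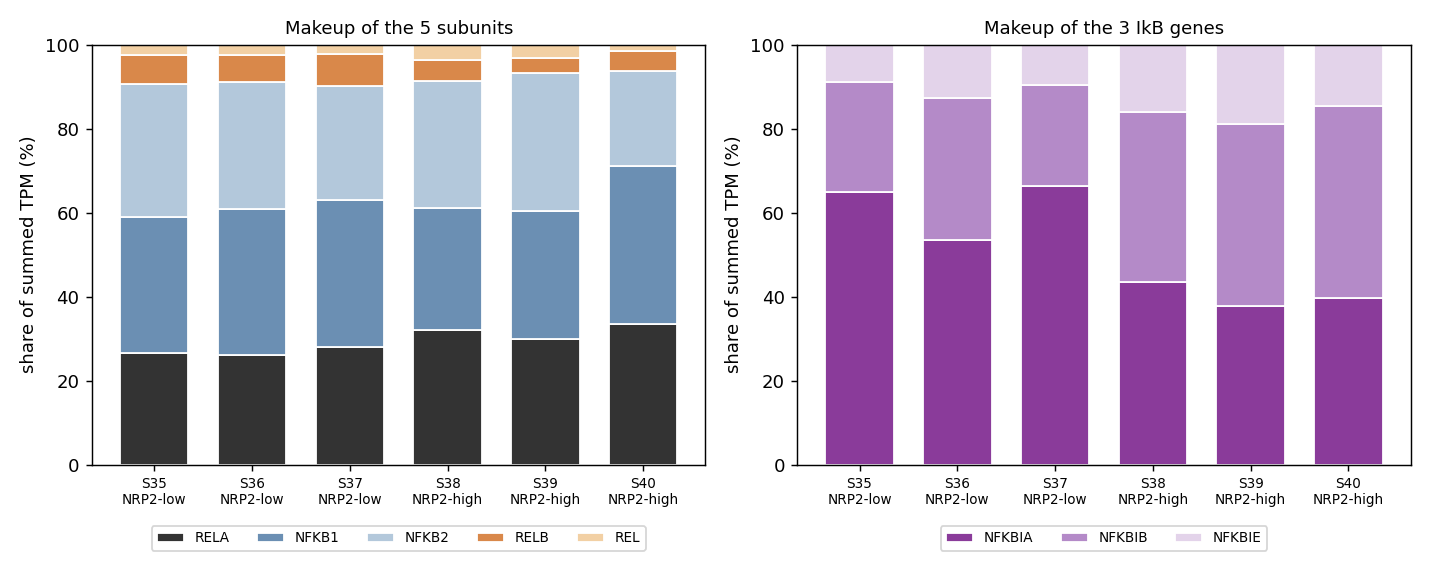
Share of summed TPM (y axis, %) taken by each of the 5 subunits (left) and each of the 3 classical IkB genes (right) in every library (x axis). The NFKBIA share is 53.4% to 66.3% in NRP2-low and 37.8% to 43.4% in NRP2-high libraries, and the RELB share is 6.57% to 7.71% and 3.54% to 4.91%.

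The libraries moved the members together in part. S37 was the lowest NRP2-low library for 8 of the 10 genes and for all 5 subunits, and still for 6 of 10 and all 5 subunits in TPM recomputed without mitochondrial genes. The part of the mitochondrial share in the remaining difference was not tested. Of all pairs of members, NFKB1 and NFKBIB varied most alike over the 6 libraries, with a root mean square difference of 0.10 in log2(TPM + 1) after each gene's mean was taken off. NFKB1 with NFKBIE (0.14) and NFKBIB with NFKBIE (0.15) came next. These are descriptions over 6 libraries that share their depth and mitochondrial share between genes. By the same measure, among 9462 protein coding genes outside the members, those most like NFKBIA were RGS2 (0.26), the endothelin gene EDN1 (0.28) and the superoxide dismutase gene SOD2 (0.29). Those most like TNFAIP3 were SOD2 (0.27), PCDHGC3 (0.30) and EDN1 (0.31). Those most like NFKB2 were LHFPL2 (0.041), SPECC1 (0.051) and VHL (0.059). The members' own root mean square deviation from their mean was 0.83 for NFKBIA, 0.89 for TNFAIP3 and 0.32 for NFKB2.

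**Figure D4:**
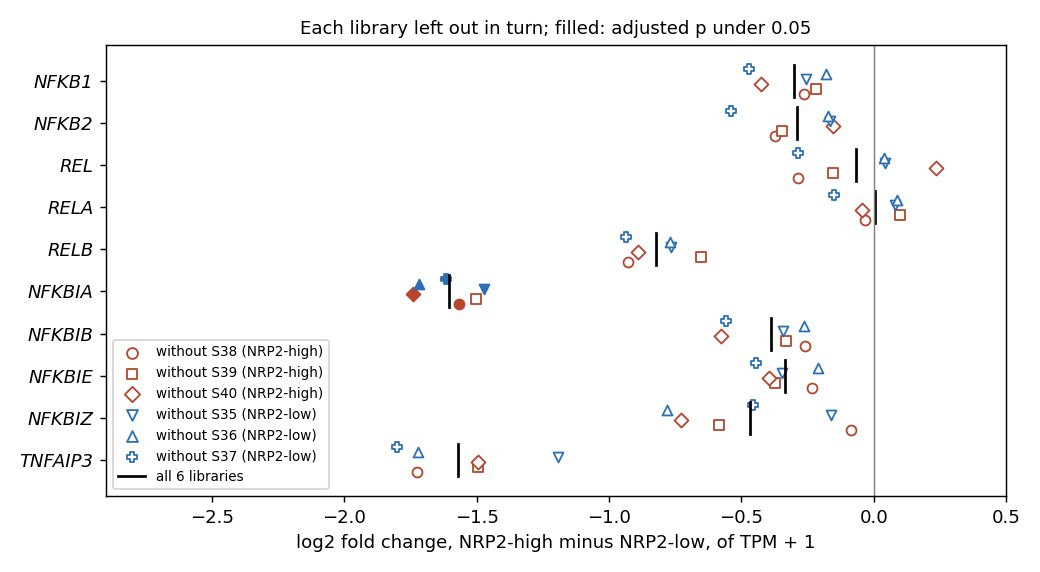
Log2 fold change of TPM + 1 (x axis) of each gene with 1 library left out (symbols, red for NRP2-high and blue for NRP2-low) and with all 6 (black bar); filled symbols passed adjusted p 0.05. NFKBIA stays between -1.74 and -1.47 and is filled in 5 of 6 fits, and REL and RELA are the genes whose symbols lie on both sides of 0.

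The rest of the pathway was described by 4 lists. Of 16 tested atypical IkB genes and A20 partners 0 passed by limma, against 0.835% of all tested genes. The list's median log2 fold change of 0.10 was like that of all genes. In this list 2 had an unadjusted p under 0.05, against 7.00% of all tested genes. The most abundant of them were RNF11 (216 against 183 TPM) and ITCH (164 against 129 TPM), both part of the A20 ubiquitin-editing complex. TNIP1, named after its values were seen, encodes the A20-binding protein ABIN1. It had 52.1, 38.4 and 36.8 TPM in the NRP2-high and 112, 121 and 67.7 TPM in the NRP2-low libraries. Its groups did not overlap and its log2 fold change was -1.20 (limma adjusted p = 0.0983). TNIP1 passed with libraries scaled by their median log ratio (adjusted p = 0.0181), in TPM recomputed without mitochondrial genes (0.0276), with voom on whole reads (0.00368) and without S37 (0.0327). It did not pass without any 1 of the other 5 libraries (up to 0.383), nor with other pseudocounts, other filters or no variance trend. The other gene with an unadjusted p under 0.05 was ZC3H12A, which encodes the RNase Regnase-1 and was also named after its values were seen. It had 8.79, 11.1 and 8.91 TPM against 18.8, 16.2 and 19.8 TPM, without overlap (log2 fold change -0.86, limma adjusted p = 0.108). Without overlap 2 genes of the list were lower and 2 higher, against 3.14% and 8.83% of all tested genes. The higher ones, also named after their values were seen, were N4BP1 and TAX1BP1. Their means were 37.1 against 28.1 TPM and 66.8 against 49.8 TPM (limma adjusted p = 0.781 and 0.752).

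Of 33 tested IkB kinase and adaptor genes 3 fell and 0 rose in NRP2-high cells, against 0.486% and 0.348% of all tested genes. The median of the list was 0.07 (-0.05 with libraries scaled by their median log ratio). At an unadjusted p under 0.05 there were 4 lower and 4 higher in NRP2-high cells, the higher ones being BCL10, CARD10, MAP3K14 and RBCK1. Of all tested genes 2.27% were lower at that p, and 7.00% differed in either direction. BIRC3 encodes cIAP2, a ubiquitin ligase of the TNF receptor complex, and was at 19.4, 17.1 and 11.4 TPM against 56.7, 53.2 and 50.3 TPM (log2 fold change -1.71, limma adjusted p = 0.00890). IRAK2, a kinase of the interleukin-1 and Toll-like receptor complex, was at 10.3, 10.9 and 8.69 TPM against 81.6, 50.2 and 30.0 TPM (-2.21, limma adjusted p = 0.0200). MYD88, the adaptor of the same receptors, was scarce in all libraries and met the filter on low values only through the NRP2-low group, at 0.321, 0.274 and 0.489 TPM (6 to 12 reads) against 3.14, 3.26 and 2.97 TPM (66 to 98 reads), with a log2 fold change of -1.60 (limma adjusted p = 0.0207). These calls depended on single libraries: 1 gene passed without S38 or S39 and 0 passed without S36. IRAK2 lost the call without S38, S39, S40 or S36 (adjusted p up to 0.102), MYD88 without any 1 library but S40 (up to 0.136) and BIRC3 without S36 (0.0615). The kinase genes themselves, named after their values were seen, did not pass. IKBKB was at 10.7 ± 0.646 against 8.35 ± 0.467 TPM, with all NRP2-high libraries above all NRP2-low libraries, and CHUK at 46.8 ± 2.80 against 42.9 ± 3.01 TPM (SD, n = 3 each).

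Of 14 tested ligands and receptors that feed into NF-kB 3 fell and 0 rose, against 0.486% and 0.348% of all tested genes. All 3 were under 1 TPM in every NRP2-high library and entered the test only through the NRP2-low group, so their count is a description. TNF, a cytokine that activates NF-kB through its receptors, had 0.764, 0.760 and 0.485 TPM in the NRP2-high (5 to 7 reads) and 48.6, 23.0 and 27.4 TPM in the NRP2-low libraries (log2 fold change -4.28, limma adjusted p = 0.000257). IL1B had 0 reads in each NRP2-high library and 254 to 1371 reads, or 14.7 to 56.6 TPM, in the NRP2-low libraries (limma adjusted p = 0.00112). TLR2, a receptor for bacterial lipoproteins, was at 0.316, 0.244 and 0.125 TPM against 7.85, 5.16 and 2.47 TPM (-2.23, limma adjusted p = 0.0283), a call that was kept only without S37 among the fits that leave out 1 library (adjusted p up to 0.154). TNF and IL1B passed without any 1 library. TLR4, the lipopolysaccharide receptor gene, named after its values were seen, went the other way without overlap. It had 1.45, 2.02 and 1.05 TPM in the NRP2-high and 0.077, 0.168 and 0.014 TPM in the NRP2-low libraries (log2 fold change 1.19, limma adjusted p = 0.158), meeting the filter only through the NRP2-high group. In the fits without a variance trend and with voom 1 gene of this list passed as higher. The median of this list was -0.20.

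The list of NF-kB target genes held 34 genes, of which 24 were tested. Of these 24, 18 passed as lower in NRP2-high cells and 0 as higher, against 0.486% and 0.348% of all tested genes. The tested genes that did not pass were IRF1, PTGS2, CFLAR, PLAU, BCL2L1 and LIF, named after their values were seen. Only IRF1 among them was below 0 (log2 fold change -0.31). LIF (0.47) was higher in NRP2-high cells without overlap, at 252, 197 and 240 against 192, 143 and 161 TPM (limma adjusted p = 0.559). The median of the list was -2.65. Of the 18, 7 (C3, CSF2, ICAM1, IL1B, SAA1, TNF and TNFAIP2) were under 1 TPM in every NRP2-high library and were tested only because NRP2-low cells expressed them, so count and median are descriptions. The other 11 were BCL2A1, BIRC3, CCL20, CSF3, CXCL1, CXCL2, CXCL3, CXCL6, CXCL8, IL6 and SOD2. Of these, BCL2A1, CCL20, CXCL6 and IL6 were under 1 TPM in at least 1 NRP2-high library. They too met the filter only with NRP2-low libraries counted, so their calls are descriptions as well. The count was 11 without S36, and 10 when no filter was applied. The median was -1.62 with no filter, -1.49 with a pseudocount of 5, -4.04 with a pseudocount of 0.1 and -4.38 with voom. Among the 11, CXCL1, a neutrophil chemokine gene, was at 22.05 to 26.3 TPM in NRP2-high and 921 to 1236 TPM in NRP2-low libraries, and IL6 was at 0.968 to 1.86 against 93.7 to 220 TPM. Their log2 fold changes of -5.42 and -5.99 are among the largest falls of the list, whose tested genes ran from -6.24 to 0.47. The target list was chosen with earlier results of these libraries known, and it shares BIRC3, IL1B and TNF with the lists above, so these counts are not independent of each other.

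**Figure D5:**
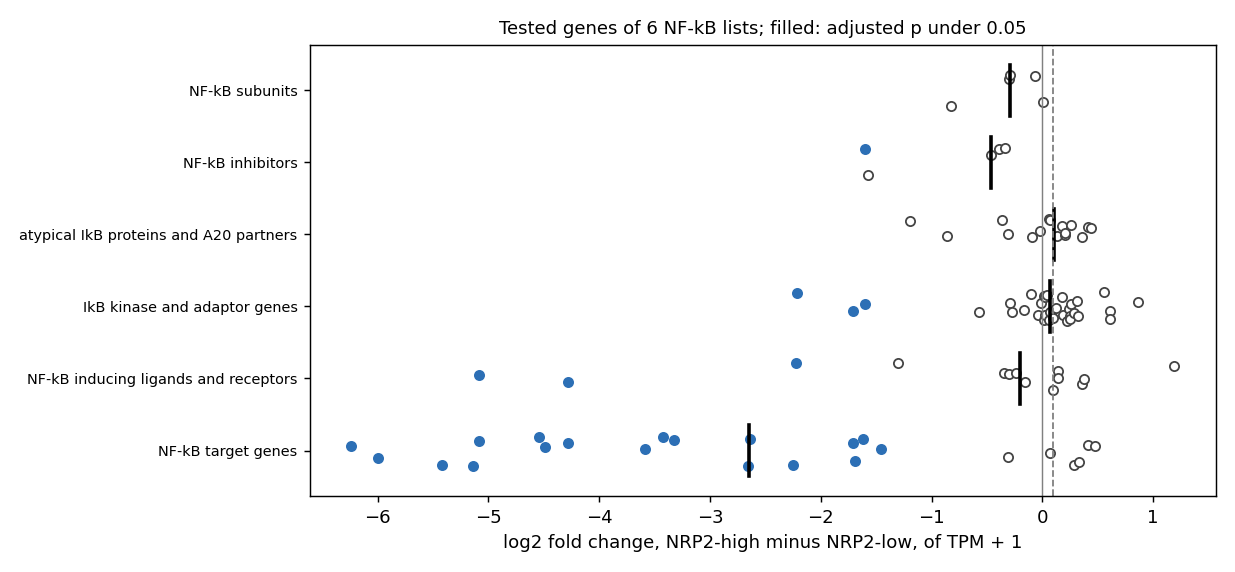
Log2 fold change of TPM + 1 (x axis) of every tested gene of the 6 lists (points; filled passed adjusted p 0.05), with the list median (black bar) and the median of all tested genes (dashed, 0.10). The median is -2.65 over the 24 tested target genes, 18 of them filled, and -0.29 over the 5 subunits, none of them filled. Of the 18, 7 were under 1 TPM in every NRP2-high library and were tested only through the NRP2-low group. BCL2A1, CCL20, CXCL6 and IL6 also met the filter only with NRP2-low libraries counted. The target median was -1.49 with a pseudocount of 5 and -4.38 with voom.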

How the data were processed

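RNA sequencing gave 6 libraries, 3 per group. The authors deposited 1 table of TPM values with gene lengths. Per the submitters' processing notes featureCounts 1.5.2, DESeq2 1.20.0 and hg38 (GRCh38.p12) were used, with roles unstated; the aligner and the strand setting were not found in the sources used here. Columns carry a group word and an S number found in no label. No source describes a group's libraries as separate sorts or cultures: p-values then reflect the spread between these samples alone, possibly technical.

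Multiplying TPM by gene length and dividing by the smallest non-zero product gave whole reads for 100% of non-zero values (tolerance 0.001), 17551302 to 30726744 per library. Library pairs within a group differed by a chi-square of 21.6 to 110.7 per gene, so none was treated as a copy. The 15214 genes with TPM of at least 1 in at least 3 libraries were tested on log2(TPM + 1), computed from the deposited values, with limma 3.58.1 (R 4.3.3; empirical Bayes, mean trend, 2-sided, group alone in the model) and p-values adjusted by Benjamini-Hochberg over all of them, threshold 0.05. The pseudocount of 1 understates changes of low genes. The fit was also run on simulated reads, drawn for each gene independently. These lack shifts that the genes of a library share, so that run does not bear on calls that such shifts move. Alternatives were other pseudocounts, filters and scalings, no trend, each library left out and, chosen after seeing the data, voom on whole reads. By rule the 10 genes could be named, with called genes of the other lists (else the 2 most abundant) and the 3 genes most like NFKBIA, NFKB2 and TNFAIP3 among genes averaging 5 TPM or more; other named genes were chosen after seeing values. The 10 genes and all lists were chosen with earlier results of these data known. Some marker genes are not reported here.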

Additional observations from a re-analysis of the deposited data

How the results depend on the processing

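Of 140 values of the 10 genes under 14 alternatives, 129 kept their direction and their side of the threshold. NFKBIA lost the call without S39 (log2 fold change -1.50, adjusted p = 0.0582), and TNFAIP3 gained it with voom on whole reads (-1.96). RELA turned below 0 with median log ratio scaling (-0.12), without mitochondrial genes (-0.0825) and with voom (-0.13), and lay between -0.15 and 0.10 with a library left out. REL lay between -0.2863 and 0.24 with a library left out, above 0 without S40, S35 or S36. Scaling by the median log ratio moved the median of all genes from 0.10 to -0.01. All genes past the threshold numbered 127, 74 with no filter, 69 with a TPM of at least 5 in 3 libraries, 208 with voom and 43 to 97 with a library left out. Inhibitors past the threshold numbered 1, 2 with voom and 0 to 1 with a library left out, and subunits 0 throughout. Atypical IkB genes and A20 partners numbered 0, and 1 with median log ratio scaling, without mitochondrial genes and with voom, and 0 to 1 with a library left out. Kinase and adaptor genes numbered 3, and 0 to 2 with a library left out. Inducing ligands and receptors numbered 3, all lower in NRP2-high cells, and 2 to 3 with a library left out. Their number was 2 with a pseudocount of 5, with no filter and with a TPM of at least 5 in 3 libraries. It was 4 with no variance trend (1 higher, 3 lower) and 5 with voom (1 higher, 4 lower). Target genes numbered 18, 10 with no filter and 11 to 16 with a library left out. The cause of these moves was not tested. No paired analysis was possible because the columns carry no replicate number of the labels. RELB rests on as few as 82 reads and TNFAIP3 on 93, which limits the precision of each single value.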
